A study of Mus musculus with 7 samples.

Results

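The 36 genes described here encode the junctions and polarity complexes of epithelial cells, and were taken by symbol from the rows of a count table of 24552 genes. They comprised 10 claudins, 7 other tight junction genes, 4 adherens junction genes, 8 desmosome genes, 6 polarity complex genes and Epcam, whose product was the marker used to sort the cells. RNA was sequenced from its 3′ ends (QuantSeq FWD) in EpCAM+ cholangiocytes, the epithelial cells that line bile ducts, from mouse liver. The DT group (3 libraries) came from Foxp3GFPDTR mice fed for 10 days a diet with DDC, which damages bile ducts, and injected intraperitoneally with diphtheria toxin at 1 µg/kg every 48 h, and the PBS group (4 libraries) came from mice of the same genotype on the same diet that were injected with saline at the same interval. Every animal therefore carried the transgene, which places the toxin receptor under Foxp3, the defining gene of regulatory T cells, and every animal was fed DDC, so that no uninjured liver enters the comparison. The comparison asks what the targeting of Foxp3+ cells changed in injured bile duct epithelium. The removal of those cells was not measured in these libraries, in which Foxp3 had 0 counts. Neither animal age nor whether a library came from 1 animal or a pool is given in the labels.

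Bile duct cells seal the duct lumen against the surrounding tissue, so that bile does not leak between them. Tight junctions at the apical edge do this with claudins and occludin, membrane proteins that meet their counterparts on the next cell and are tied to actin by the ZO scaffold proteins. Below them, adherens junctions join neighbours through E-cadherin, which is linked to actin by the catenins, and desmosomes join them through desmogleins and desmocollins, which are linked to keratin filaments by plakoglobin, plakophilins and desmoplakin. The Par, Crumbs and Scribble complexes set the boundary between the apical and basolateral membrane and so the place where the junctions form.

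Total counts per library ran from 5683824 to 6285624 in DT and from 4805018 to 5499832 in PBS, and the members held 1.28% to 1.46% of them in DT and 1.49% to 1.70% in PBS. Values are CPM, counts scaled to a common total, on library sizes scaled by the TMM method. They were not divided by transcript length, because the protocol reads transcript ends, so a share of counts taken by a gene or family describes the reads and not the level of RNA per length. Counts of 0 were frequent at moderate depth. A gene that averaged 200 to 500 counts in the rest of its group was at 0 in 25.6% of cases, and a gene that averaged 1000 to 2000 counts in 1.17%. DT 1 held counts for the fewest genes of the 7 libraries (5419). The cholangiocyte label was in keeping with its markers, since all 12 listed cholangiocyte genes had counts and summed to 20088 to 24768 CPM in DT and 17078 to 20625 CPM in PBS. Markers of other cells were lower but not absent. The 12 hepatocyte markers, of which Cps1 was at 0, summed to 4113 to 5606 CPM in DT and 2462 to 4024 CPM in PBS, with no overlap between the groups. Taken singly, only Alb (1398 to 2062 CPM in DT, 695 to 1277 CPM in PBS) and Serpina1b (68.4 to 217 CPM in DT, 0 to 51.9 CPM in PBS) did not overlap. Gc, the other highly read marker, overlapped (784 to 2548 CPM in DT, 770 to 1851 CPM in PBS). Apoa1 had 0 counts in DT, and Cyp2e1 had 2 counts in all. The 9 macrophage and monocyte markers, of which Adgre1 was at 0, summed to 1506 to 1887 CPM in DT and 872 to 1990.2 CPM in PBS. Of these, Cd14 alone was at 1287, 1235 and 1268 CPM in DT and at 809, 1473, 1449 and 873 CPM in PBS. Csf1r also had counts in all 7 libraries, but Cd68 and C1qa had 0 counts in PBS 1 to 3. The 7 endothelial markers reached at most 170.4 CPM in DT and 42.0 CPM in PBS, the 8 stellate and fibroblast markers at most 66.1 CPM in DT and 136 CPM in PBS, and Ptprc, the general leukocyte marker, at most 132 CPM in DT and 17.0 CPM in PBS. The 4 B cell markers were at 0, as were 6 of 7 T and NK cell markers found. Of 4 mesothelial markers Upk3b, Upk1b and Wt1 were at 0, and Msln was at 0 to 33.1 CPM in DT and 61.7 to 139 CPM in PBS, with no overlap. Hepatocytes make many of the same junction proteins as bile duct cells. Y-linked reads were present in all 3 DT libraries and in PBS 1, but not in PBS 2 to 4, so the sex of the animals was not balanced between the groups. Xist, which female cells express, had 453 counts in DT 1, 630 in PBS 1, 0 in DT 2 and DT 3, and 10420 to 17627 in PBS 2 to 4. DT 1 and PBS 1 thus held both kinds of reads, and the reason was not tested. In bulk samples, fewer cells of a type and less RNA per cell cannot be told apart.

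**Figure D1:**
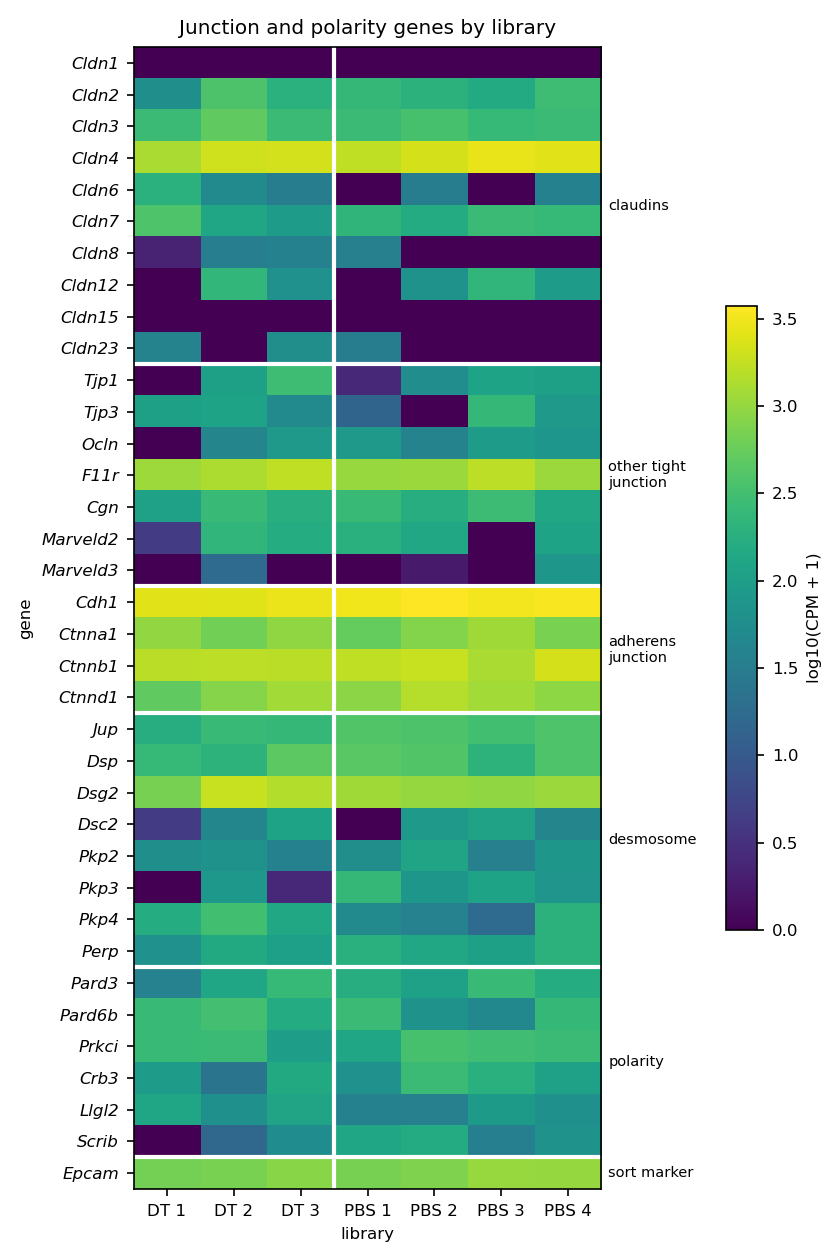
Expression of the 36 junction and polarity genes (rows, grouped by family) in each DT and PBS library (columns) as log10(CPM + 1), where the darkest colour is 0 counts. E-cadherin (Cdh1), Cldn4, Ctnnb1 and F11r were read deeply in all 7 libraries, and Cldn1 and Cldn15 had 0 counts throughout. With these included, 8 members were at 0 in DT 1, 3 in each of DT 2 and DT 3, and 4 to 7 in the PBS libraries.

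No junction or polarity gene passed the test between DT and PBS. By the edgeR quasi-likelihood test over all 7688 genes that passed the filter on low counts, 0 of the 33 members tested were called as higher or lower at an adjusted p of 0.05, against 0.0390% of all tested genes (3 genes, each lower). Each of the 33 had an edgeR adjusted p of 1.00. None reached an unadjusted p of 0.05 in this edgeR fit either, where 1.39% of all tested genes did so as higher and 2.11% as lower. DESeq2 called 0 members and limma-voom called 1, Cdh1, as lower, against 0.351% of all tested genes called higher and 1.01% called lower by DESeq2 and 0.0780% called in each direction by limma-voom. Every limma-voom call, 6 higher and 6 lower, was among the 733 genes whose mean log2 CPM reached 8, as were 11 of the members. Below an unadjusted p of 0.05, DESeq2 had 2 members, Cdh1 and Jup, as lower. Limma-voom had 1 as lower, Cdh1, and 2 as higher, Cldn8 and Dsg2. The shares of all genes below that p were not computed for these methods. In the edgeR fit 14 of the tested members had positive and 19 negative log2 fold changes, with a median of -0.13, where the median over all tested genes was -0.016. Cldn1, Cldn15 and Marveld3 did not pass the filter.

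The members differed in how closely these libraries could measure them. Counts were present in all 7 libraries for 22 members and in 3 to 6 libraries for 12. For 7 members, Cldn4, F11r, Cdh1, Ctnna1, Ctnnb1, Dsg2 and Epcam, the 95% interval of the log2 fold change lay wholly between -1 and 1. For 14 members that interval was more than 4 log2 units wide, and for these a large change in either direction would have gone undetected. Members at 500 CPM or more, 8 in number, had a median coefficient of variation of 21.8% in DT and 21.7% in PBS, beside 22.2% in DT and 27.0% in PBS for all genes at that level. The 10 members at 20 to 100 CPM had a median of 104% in DT and 68.5% in PBS, beside 95.5% in DT and 105% in PBS for all such genes.

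**Figure D2:**
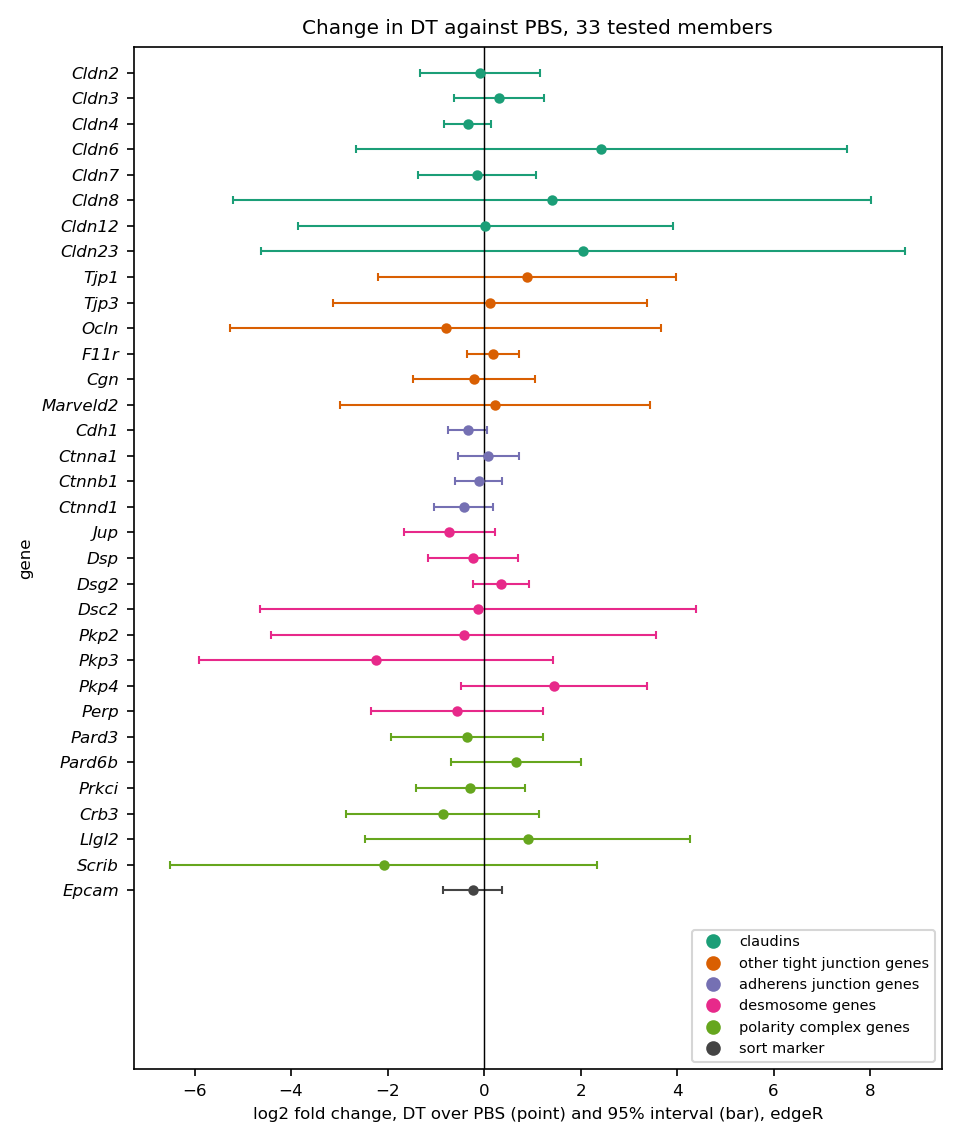
Log2 fold change of DT over PBS for the 33 tested members (points, coloured by family) with its 95% interval from the edgeR fit (bars). All 33 intervals cover 0, and the shortest bars belong to Cdh1, Cldn4, Ctnnb1 and F11r.

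Among the claudins, the membrane proteins that set which ions and molecules pass between cells, 0 of the 8 tested were called, 5 had positive and 3 negative log2 fold changes, and the median was 0.16, or negative in 2 of 15 alternatives. Cldn4, a claudin associated with a tight barrier, took most of the claudin counts, 64.6% ± 8.4 in DT (SD, n = 3) and 72.7% ± 3.5 in PBS (SD, n = 4). It was at 1317, 2087 and 2112 CPM in DT 1 to 3 and at 1681, 2159.5, 2866 and 2601 CPM in PBS 1 to 4. The groups overlapped, with PBS 1 below both DT 2 and DT 3, and the log2 fold change was -0.34 (SE 0.24, 95% interval -0.82 to 0.14, edgeR adjusted p = 1.00). Cldn3, another barrier-forming claudin, was at 275, 500.1 and 275 CPM in DT and at 272, 339, 249 and 271 CPM in PBS. DT 2 was the highest library, and without it the log2 fold change of Cldn3 was -0.045, against 0.31 with all libraries (SE 0.46).

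Cldn2, which forms pores for cations and water, was at 59.3, 369 and 188 CPM in DT, against 240.5, 196, 151 and 287 CPM in PBS. Its lowest and its highest value were thus both in DT, and the fitted difference ran from -0.82 without DT 2 to 0.33 without DT 1 (-0.09 with all libraries, SE 0.61). Cldn7, which is found along the lateral membrane as well as at tight junctions, was at 387, 125 and 90.8 CPM in DT and at 218, 156, 267 and 247 CPM in PBS. DT 1 was above every PBS library and DT 2 and DT 3 below every one, and without DT 1 its log2 fold change was -1.07, against -0.15 with it (SE 0.61). In DT 1, Cldn7 made up 17.1% of the claudin counts and Cldn2 2.62%, whereas in the other 6 libraries Cldn7 made up 3.18% to 8.82% and Cldn2 4.01% to 10.9%. Cldn12, a claudin of less settled role, had 0 counts in DT 1 and PBS 1 and 337 to 1220 counts in the other 5 libraries (log2 fold change 0.022, SE 1.84).

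The remaining claudins were near the limit of what these libraries could show. Cldn6, a claudin of embryonic epithelia, had 1140, 266 and 176 counts in DT 1 to 3 and 0, 154, 0 and 184 counts in PBS 1 to 4. These are 90.1 ± 86.5 CPM in DT and 16.7 ± 19.4 CPM in PBS, a log2 fold change of 2.43 with an SE of 2.52. The groups overlapped, since PBS 4 was above DT 3 in CPM, and without DT 1 the value was 1.26. Cldn8, a barrier claudin of kidney and gut, had counts in 4 libraries (7, 172 and 206 in DT and 180 in PBS 1), and Cldn23 in 3 (231 in DT 1, 319 in DT 3 and 156 in PBS 1). Cldn1, which hepatocytes and many epithelia make, and Cldn15, which forms cation pores in the intestine, had 0 counts in every library. By counting error alone a count of 0 allows up to 3 counts per library, 0.498 to 0.618 CPM, and the true limit is higher because zeros were frequent.

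**Figure D3:**
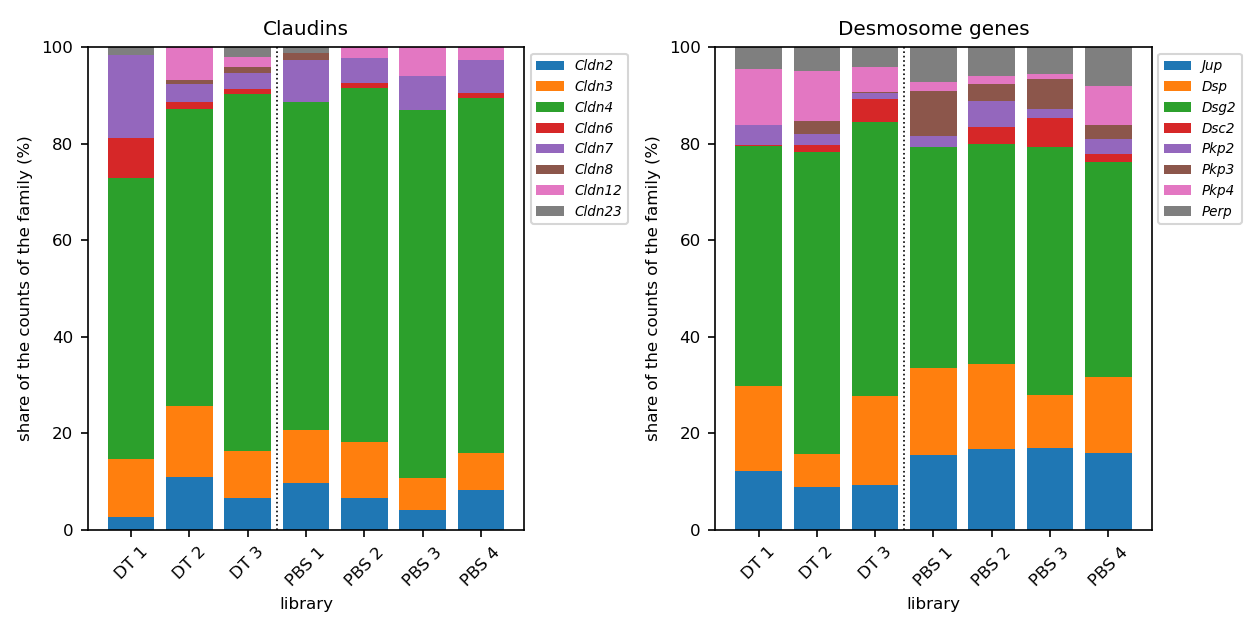
Share of the counts of each family, in percent, taken by each claudin (left) and each desmosome gene (right) in the 3 DT and 4 PBS libraries. Cldn4 took 58.1% to 76.2% of the claudin counts, and Jup took 8.85% to 12.2% of the desmosome counts in DT and 15.5% to 16.9% in PBS. Perp shares did not overlap either (4.07% to 4.96% in DT, 5.63% to 8.09% in PBS). Both depend on the share of Dsg2 in the same total (49.7% to 62.7% in DT, 44.4% to 51.4% in PBS).

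The other tight junction genes likewise gave 0 calls among 6 tested, with 4 positive and 2 negative log2 fold changes. Their median was 0.16, and it was negative in 6 of 15 alternatives, down to -0.25 without DT 2. F11r encodes JAM-A, an adhesion protein of the immunoglobulin family that recruits the Par complex to new junctions. It was at 1115, 1342 and 1702 CPM in DT and at 1064, 1081, 1652 and 1077 CPM in PBS. All 3 DT libraries were above PBS 1, PBS 2 and PBS 4, but PBS 3 was second to DT 3, and the log2 fold change was 0.19 (SE 0.27, 95% interval -0.35 to 0.73). Cgn, which encodes the junction-bound protein cingulin, was at 108, 251 and 179.9 CPM in DT and 253, 166, 280.1 and 135 CPM in PBS, so that the groups overlapped (-0.22, SE 0.63).

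The scaffold, occludin and tricellulin genes varied more between libraries of a group than between the groups. Tjp1, which encodes the scaffold ZO-1, had 0, 568 and 1614 counts in DT 1 to 3 and 8, 283, 566 and 542 counts in PBS 1 to 4. Its log2 fold change of 0.89 (SE 1.52) was -0.40 without DT 3. Tjp3 (ZO-3) had 630, 629 and 286 counts in DT and 67, 0, 1143 and 434 counts in PBS (0.12, SE 1.61), and without PBS 3, the highest library, its value was 1.47. Ocln, the gene of occludin, had 0, 218 and 476 counts in DT and 422, 198, 456 and 379 counts in PBS, and without DT 1 its log2 fold change was -0.24, against -0.80 with it (SE 2.21). Marveld2, the gene of tricellulin, which closes the corners where 3 cells meet, had 20, 1176 and 929 counts in DT and 962, 707, 0 and 586 counts in PBS (0.23, SE 1.51). For Tjp1, Ocln and Marveld2, DT 1 was the lowest DT library, at 0 to 20 counts. Its relative Marveld3 had counts in 3 libraries only (90 in DT 2, 4 in PBS 2 and 389 in PBS 4) and was not tested.

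Adherens junction genes had the highest summed counts of the 5 families, and 3 of the 4 had negative log2 fold changes, with a median of -0.23 and 0 calls by edgeR. Cdh1, the gene of E-cadherin, was at 2612, 2494 and 2899.7 CPM in DT 1 to 3, against 3132, 3727, 3189.9 and 3492 CPM in PBS 1 to 4. Every DT library was below every PBS library. Such a lack of overlap as lower in DT was found for 2 of the 33 tested members and for 2.58% of all tested genes. Among genes whose mean log2 CPM reached 8 it was found for the same 2 of 11 members and for 5.59% of genes, and as higher in DT for 0 members and 7.37% of genes at that level (3.73% of all tested genes). Cdh1 averaged 2669 ± 208 CPM in DT (SD, n = 3) and 3385 ± 277 CPM in PBS (SD, n = 4), and the log2 fold change was -0.34 (SE 0.20, 95% interval -0.74 to 0.06, edgeR adjusted p = 1.00). It passed by limma-voom with sample weights (log2 fold change -0.35, limma adjusted p = 0.0296) and did not pass by DESeq2 (-0.36, adjusted p = 0.328). Over the 15 alternatives its log2 fold change stayed between -0.41 and -0.23, with adjusted p from 0.0296 to 1.00. Relative to Epcam in the same library, a ratio chosen after the values were seen, Cdh1 stood at 3.95, 3.49 and 3.40 in DT and at 4.47, 4.92, 3.05 and 3.48 in PBS, and by that measure the groups overlapped. With a covariate for Y-linked reads, a fit that rests on PBS 1, the log2 fold change of Cdh1 was -0.23 (edgeR adjusted p = 0.858). The hepatocyte marker sum (4113 to 5606 CPM in DT, 2462 to 4024 CPM in PBS) and Msln separated the groups as well. So did the cholangiocyte markers Cd24a (866 to 1062 CPM in DT, 408 to 818 CPM in PBS) and Anxa4 (424 to 620 CPM in DT, 97.0 to 357 CPM in PBS). The other listed cholangiocyte markers and the sum of all of them overlapped. Among the single hepatocyte markers only Alb and Serpina1b did so. The part of these markers in the values of Cdh1 and Jup was not tested.

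The catenins, which tie E-cadherin to actin or hold it at the membrane, did not separate the groups. Ctnnb1 (beta-catenin, also the transcriptional partner in Wnt signalling) was at 1609.7, 1655 and 1612 CPM in DT and at 1671, 1888, 1301 and 2177 CPM in PBS. The DT libraries lay close together within the wider range of PBS, and the log2 fold change was -0.11 (SE 0.24, 95% interval -0.61 to 0.38). Ctnna1 (alpha-catenin), which binds actin, was at 973, 637 and 961 CPM in DT and 527, 811, 1164 and 719.9 CPM in PBS (0.09, SE 0.31). Ctnnd1 (p120-catenin), which keeps cadherins at the cell surface, was at 492, 843 and 1181 CPM in DT and 886, 1477, 1198 and 930.2 CPM in PBS. DT 1 and DT 2 were below every PBS library while DT 3 was not, and the log2 fold change was -0.42 (SE 0.31), or -0.17 without DT 1. Summed over the 4 genes, adherens junction expression was at 5989.6 ± 575 CPM in DT and 7073 ± 714 CPM in PBS, with DT 3 above PBS 1.

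**Figure D4:**
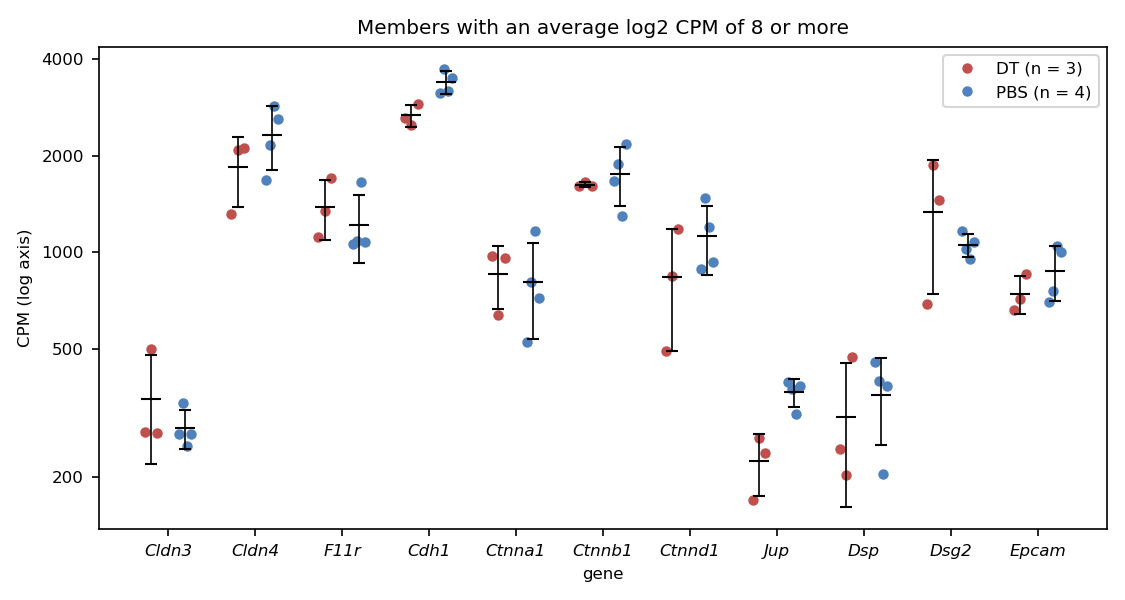
CPM (log axis) of the 11 members whose mean log2 CPM reached 8 in each DT (left of each pair) and PBS library, with the mean (bar) and SD (whiskers). DT and PBS points do not overlap for Cdh1 (2494 to 2899.7 CPM in DT, 3132 to 3727 CPM in PBS) and Jup (169 to 264 CPM in DT, 313 to 394 CPM in PBS), and overlap for the other 9.

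Of the 8 desmosome genes, all tested, 0 were called, 2 had positive and 6 negative log2 fold changes, and the median was -0.33. Jup encodes plakoglobin, which sits in both desmosomes and adherens junctions. It was at 169, 264 and 237 CPM in DT, against 394, 377, 313 and 385 CPM in PBS, and was the other member with every DT library below every PBS library. It averaged 223 ± 48.6 CPM in DT (SD, n = 3) and 367 ± 36.9 CPM in PBS (SD, n = 4), and the log2 fold change was -0.72 (SE 0.47, 95% interval -1.67 to 0.23, edgeR adjusted p = 1.00), and it did not pass by DESeq2 (adjusted p = 0.643) or limma-voom (adjusted p = 0.801). Its log2 fold change was between -0.86 and -0.58 in the 15 alternatives, with adjusted p from 0.481 to 1.00. Relative to Epcam, Jup stood at 0.256, 0.369 and 0.277 in DT and 0.563, 0.497, 0.299 and 0.384 in PBS, where DT 2 was above PBS 3.

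Dsg2, the desmoglein of simple epithelia, took the most desmosome counts, 56.4% ± 6.5 in DT and 46.8% ± 3.1 in PBS. It was at 689, 1867 and 1456 CPM in DT and at 1166, 1027, 953 and 1076 CPM in PBS. PBS libraries lay close together, while DT 1 was below and DT 2 and DT 3 above all of them. The log2 fold change of 0.34 (SE 0.29, 95% interval -0.24 to 0.92) was 0.63 without DT 1 and 0.024 without DT 2. Its partner cadherin Dsc2 had 19, 227 and 670 counts in DT and 0, 421, 555 and 209 counts in PBS (-0.13, SE 2.24). Dsp, the gene of desmoplakin, which binds keratin filaments, was at 243, 203 and 473 CPM in DT and 456, 396, 204 and 382 CPM in PBS, with DT and PBS over much the same range (-0.23, SE 0.46).

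The plakophilins, which gather desmosomal cadherins at the membrane, did not all lie on the same side. Pkp4, a plakophilin found mainly with classical cadherins, was at 160.1, 309.9 and 136.0 CPM in DT, against 48.5, 37.9, 16.9 and 193 CPM in PBS. PBS 1 to 3 were below every DT library and PBS 4 was not. The log2 fold change was 1.45 (SE 0.96, 95% interval -0.49 to 3.38, edgeR adjusted p = 1.00), and 2.55 without PBS 4. Pkp3, a plakophilin of most epithelia, had 0, 417 and 9 counts in DT and 1225, 385, 561 and 369 counts in PBS. Only DT 2 was in the range of PBS, and the log2 fold change of -2.24 (SE 1.82, 95% interval -5.90 to 1.43) was -7.26 without DT 2, a value set by the counts of 0 and 9. Pkp2, a plakophilin of simple epithelia and heart, was at 58.6, 66.9 and 35.8 CPM in DT and 57.3, 121, 34.4 and 75.6 CPM in PBS (-0.42, SE 1.98). Perp, a membrane protein of desmosomes that p53 and p63 induce, was at 64.0, 148 and 104 CPM in DT and 185, 137, 104 and 196 CPM in PBS (-0.56, SE 0.88).

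Polarity complex genes were 6 in number, 0 of them called, with 2 positive and 4 negative log2 fold changes and a median of -0.32, or 0.16 with the covariate for Y-linked reads. In the Par complex, Pard3 (the scaffold Par-3) was at 36.9, 124 and 246 CPM in DT and 169, 111, 253 and 162 CPM in PBS (-0.36, SE 0.78). Pard6b, which activates the complex's kinase, was at 252, 319 and 155 CPM in DT and 267, 66.6, 45.5 and 235 CPM in PBS. PBS split into 2 low and 2 high libraries, the high ones within the range of DT, and the log2 fold change was 0.66 (SE 0.67). Prkci, the kinase aPKC iota, was at 261, 273 and 100.2 CPM in DT and 125, 335, 295 and 274 CPM in PBS, with DT 3 and PBS 1 as the low libraries (-0.28, SE 0.56).

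Crb3, the Crumbs protein of epithelia that marks the apical membrane, was at 89.0, 22.9 and 146 CPM in DT and 62.5, 267, 185 and 108 CPM in PBS (-0.86, SE 0.99). The basolateral genes had opposite signs. Llgl2, a Lgl protein that aPKC keeps from the apical side, was at 129, 61.6 and 121 CPM in DT and 36.5, 35.3, 88.4 and 61.4 CPM in PBS (0.91, SE 1.67). Scrib, the scaffold Scribble, had 0, 78 and 303 counts in DT and 664, 798, 162 and 330 counts in PBS (-2.08, SE 2.19). DT 1 and DT 2 were below every PBS library for Scrib, and DT 3 was within their range. Although its members varied, the family had the least variable sum, 802 ± 29.8 CPM in DT and 892 ± 75.7 CPM in PBS.

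Epcam, the sorting marker, whose protein binds Cldn7 and steadies it at the membrane, was at 661, 716 and 854 CPM in DT and 700.3, 757, 1046 and 1003 CPM in PBS. The groups overlapped (log2 fold change -0.24, SE 0.30, 95% interval -0.85 to 0.37).

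Family sums overlapped between the groups in all 5 families. The sum of all 36 members overlapped too (12101 to 16208 CPM in DT, 14327 to 16855 CPM in PBS). Their share of the raw counts did not (1.28% to 1.46% in DT, 1.49% to 1.70% in PBS), so this separation depended on the scaling. Claudins summed to 2837 ± 563 CPM in DT and 3179.7 ± 580.2 CPM in PBS, other tight junction genes to 1964 ± 578 CPM in DT and 1783 ± 404 CPM in PBS, and desmosome genes to 2309.6 ± 825 CPM in DT and 2269 ± 301 CPM in PBS. DT 1 had the lowest sum of the 7 libraries in 4 of the families, the exception being the adherens junction genes, where DT 2 had it. The log2 ratio of the mean sums, DT over PBS, was 0.14 for other tight junction genes, 0.33 without DT 1 and -0.063 without DT 3. For desmosome genes it was 0.025, and it ran from -0.20 without DT 2 to 0.27 without DT 1 and was -0.013 with RLE and -0.0038 with upper quartile factors. The sums of claudins (-0.16), adherens junction genes (-0.24) and polarity genes (-0.15) had negative log2 ratios also with RLE and upper quartile factors and with each library left out. They were not refitted with the covariate for Y-linked reads. With it, the median log2 fold change was 0.094 for claudins, -0.060 for adherens junction genes and 0.16 for polarity genes. For 5 members, Cldn12, Tjp1, Ocln, Marveld2 and Dsc2, DT 1 had 20 counts or fewer where DT 2 and DT 3 each had more than 200. Of these, PBS 1 was also at 20 counts or fewer for Cldn12, Tjp1 and Dsc2 (0, 8 and 0 counts). PBS 3 was at 0 for Marveld2, and no PBS library was that low for Ocln. The share of all genes with such a pattern in DT 1 was not computed.

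**Figure D5:**
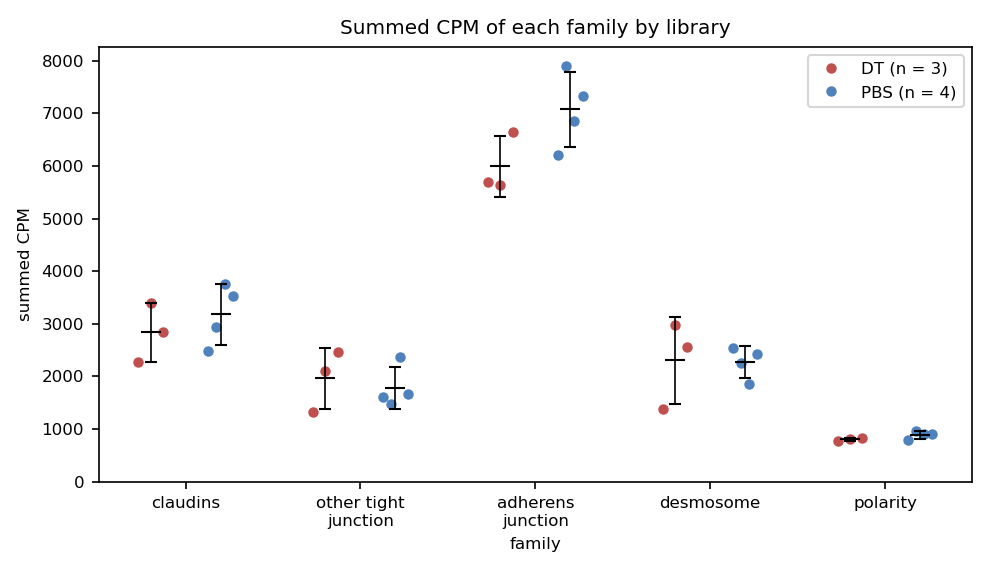
Summed CPM of the claudins, other tight junction, adherens junction, desmosome and polarity genes in each DT (left of each pair) and PBS library, with the mean (bar) and SD (whiskers). The adherens junction sums run from 5629 to 6653 CPM in DT and from 6216 to 7903 CPM in PBS, and the DT and PBS points overlap in all 5 families.

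Other junction and polarity genes, from a list of 109 symbols that holds older names of some genes beside the newer ones, gave the same count of calls. Rows were found for 98, of which 32 were at 0 and 51 were tested. Of these 0 were called by edgeR, with 27 positive and 24 negative log2 fold changes and a median of 0.04. At an unadjusted p of 0.05, 1 was lower and 0 were higher, beside 2.11% of all tested genes as lower and 1.39% as higher. Groups did not overlap for 1 gene as lower in DT and for 2 as higher, Cdc42 and Esrp1, beside 2.58% of all tested genes as lower and 3.73% as higher, so neither count stands out from the whole table. The gene that was lower by both measures was Amotl1, an angiomotin-family protein of tight junctions that also binds the co-activator YAP. It was at 115, 131 and 261 CPM in DT, against 610.3, 303, 390.3 and 496 CPM in PBS, with every DT library below every PBS library. Its log2 fold change was -1.41 (SE 0.48, edgeR adjusted p = 1.00), and it passed by DESeq2 (adjusted p = 0.0353) but not by limma-voom (adjusted p = 0.625). Among the most highly read of these genes were Lsr, which guides tricellulin to cell corners (1008 ± 94.1 CPM in DT and 749.5 ± 249 CPM in PBS), and Cxadr, a junctional adhesion protein (668 ± 334 CPM in DT and 733 ± 107 CPM in PBS), with log2 fold changes of 0.43 (SE 0.30) for Lsr and -0.13 (SE 0.34) for Cxadr.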

How the data were processed

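The authors deposited 1 table of raw read counts, with a row for each gene symbol and no normalization. Per the labels' protocols the libraries were made from total RNA with a QuantSeq FWD kit, and per the submitters' processing notes the genome build was mm9. Aligner, counting tool, annotation and the use of strand or molecular identifiers were not given in the sources used here, so reads of Cldn3, Tjp3, Ctnnb1 and Crb3, which overlap exons of antisense genes with counts in a GRCm38 annotation, may not be wholly their own. No coordinates are given because that annotation is of another build. Sample titles gave the groups and replicate numbers. Nothing in the labels says that libraries came from separate animals, so the spread behind each p-value is that of libraries and may be technical. No 2 libraries held identical values.

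From these counts, TMM factors were computed in edgeR 4.0.16 (R 4.3.3), and filterByExpr left 7688 tested genes with 97.5% of all counts. The DT and PBS groups were set against each other with edgeR's robust quasi-likelihood test (two-sided), and p-values were adjusted by Benjamini-Hochberg over the tested genes (threshold 0.05). The SE is the fold change divided by the root of F, and the 95% interval from the SE and the t distribution. CPM are given as mean ± SD. The limit given for a count of 0 covers counting error only. The 36 members, their families and all lists were chosen with earlier results of these data known. Values per library are given for tested members with a mean of 50 CPM or more, in counts where libraries had few or none, and more briefly for the rest. Non-members are named where their unadjusted p was below 0.05, or as the 3 most highly read of their list, of which 1 is not reported here. The alternatives comprised RLE or upper quartile factors, no filter, a filter at a mean log2 CPM of 8, a block for the replicate number, a covariate for Y-linked reads, DESeq2 1.42.0, limma-voom with sample weights (limma 3.58.1), and leaving out each library. The edgeR script was run on simulated counts as a check of the code, and nothing about power in these libraries is drawn from that run. Figures were drawn with matplotlib 3.10.9.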

Additional observations from a re-analysis of the deposited data

Results flagged for a closer look

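In PBS, the group of 4 libraries, 4 of 34 members with varying values had a library far from the others. For F11r, PBS 3 (1652 CPM) was separated from the nearest other PBS library by 0.970 of the range of the group. Chance singles out about 1 in 20 groups of continuous values, so F11r alone is no more than chance gives. For the other 3 genes the share follows from counts of 0. It was 1 for Cldn8 and for Cldn23, with 180 and 156 counts in PBS 1 and 0 counts in each of PBS 2 to 4, and 0.990 for Marveld3, with 389 counts in PBS 4 against 0 to 4 in PBS 1 to 3. The DT group, with 3 libraries, was not tested in this way.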

How the results depend on the processing

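The 33 tested members were refitted under 13 to 15 alternatives each, as not every gene passed each filter. The sign held in all of a gene's alternatives for 15 genes, Cdh1 and Jup among them, and turned in at least 1 for 18. With the covariate for Y-linked reads the log2 fold change was 0.13 for Cldn4, -0.59 for Cldn8, -0.53 for Marveld2, 11.18 for Dsc2, -0.14 for Pard6b, 0.75 for Prkci, 0.46 for Crb3 and 0.086 for Epcam, the median was -0.060 for adherens junction and 0.16 for polarity genes, and 23 genes of the table were called higher. That covariate rests on PBS 1, the only PBS library with Y-linked reads. With limma-voom it was 0.0076 for Cldn2 (also the median of all tested members), 0.079 for Cgn and 1.21 for Dsc2, the claudin median was 0.55, 1 junction gene (Cdh1) was called lower, and 6 genes of the table were called in each direction. For Cldn12 it was -0.043 with RLE factors and with DESeq2 and -0.019 with upper quartile factors.

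With the replicate number as a block the value was -0.020 for Cldn12, -0.20 for Tjp1, 0.021 for Ctnnb1 and 0.99 for Dsc2, and 6 genes of the table were called higher and 6 lower, none of them a junction gene. A check gave no sign that the numbers pair the libraries. The deviations of same-numbered libraries correlated at -0.0490, -0.0122 and 0.0259, and 1 of 3 DT libraries matched best with its own number. With so few and variable libraries the check cannot show that they were unpaired, and the labels do not state it.

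Over the table, no filter gave 1 gene higher and 7 lower, the filter at a mean log2 CPM of 8 gave 5 lower, DESeq2 gave 27 higher and 78 lower, and leaving out a library gave 0 to 1 higher and 1 to 4 lower. No polarity gene passed the filter at 8. Without 1 library at a time the claudin median ran from -0.11 to 0.56 and that of the other tight junction genes from -0.25 to 0.15. The median of the other tight junction genes was also negative with the block (-0.031) and with the covariate for Y-linked reads (-0.055). With a library left out, the log2 fold change ran from -0.82 to 0.33 for Cldn2, -0.045 to 0.45 for Cldn3, -1.07 to 0.19 for Cldn7, -1.59 to 0.88 for Cldn12, -0.40 to 1.46 for Tjp1, -0.29 to 1.47 for Tjp3, -0.53 to 0.023 for Cgn, -0.40 to 0.78 for Marveld2, -0.080 to 0.31 for Ctnna1, -1.38 to 0.41 for Dsc2, -1.11 to 0.070 for Pard3 and -0.52 to 0.047 for Prkci. The cause of these turns was not tested.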
